A study of Mus musculus with 28 samples.

Results

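Small nucleolar RNAs (snoRNAs) were examined in mouse peritoneal resident macrophages, which live for long in the cavity around the abdominal organs. A snoRNA was included if a probe set with 1 gene symbol named it in the array's gene table and its mean log2 signal over all 28 arrays was above 6.32. As a measure of background, that cut is the 95th percentile of the mean levels of 1210 probe sets for odorant and vomeronasal receptors, which are sensory neuron genes. Of 51 snoRNAs with such a probe set, 39 met the rule, 21 of the box C/D class and 18 of the box H/ACA class. The brightest probe set stood for each snoRNA, and all 39 were among the 13512 genes tested. For 4 of them, Snord47, Snora33, Snord118 and Snord49a, the mean over WT, KO, PBS and LPS alone was at or below the cut (6.05, 6.17, 6.19 and 6.30), so they are members only through PGN, IMQ and BG. Their higher signals in those groups are therefore described and not taken as support, and some counts and medians are also given without them. Because the mean level chose these snoRNAs, levels are given as a description, and tests were made only between groups.

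The arrays came from 7 groups of 4, described by the submitters as biologically independent experiments, and all mice had a C57BL/6 background. The WT group (wild type) and the KO group (lacking the transcription factor ATF7) were not injected, and no source used here gives their age. The other 5 groups were wild type and were given an intravenous injection at 7 to 8 weeks of age and labelled as sampled at 3 weeks, the protocol giving 3 to 4 weeks and an age of 10 to 12 weeks. They received PBS as the vehicle control, or LPS (lipopolysaccharide), PGN, imiquimod (IMQ) or β-glucan (BG), each an agonist of innate immune receptors. Cells of every group were washed from the cavity without thioglycollate, kept overnight in serum-free medium, and freed of non-adherent cells such as lymphocytes. The series asks how ATF7 and earlier LPS exposure affect the macrophages' gene expression, with the other ligands beside LPS.

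snoRNAs are short nuclear RNAs that guide chemical modification of ribosomal RNA in the nucleolus. Box C/D snoRNAs bind the methyltransferase fibrillarin and guide ribose methylation, whereas box H/ACA snoRNAs bind the pseudouridine synthase dyskerin and guide conversion of uridine to pseudouridine. A few of each class, such as U8, U14 and U17, act in cutting the ribosomal RNA precursor. Most mammalian snoRNAs are not made from genes of their own but are cut from introns of ribosomal protein genes or of noncoding host genes, so the level of a snoRNA depends on transcription of the host, on assembly with its core proteins and on decay.

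In the RefSeq gene table, 36 of the 39 snoRNAs lay within the span of 1 other gene, 2 lay within 2 spans (Snord8, in Gm26590 and Chd8, was one) and Snord118, which is U8, lay in none. The strand of these spans was not checked. Several of the snoRNAs described here shared a spanning gene and are thus not independent of each other. Snora44 and Snora16a lay in Snhg12, Snora73a and Snora73b in Snhg3, Snord49a and Snord49b in 2410006H16Rik, Snord35a and Snord33 in Rpl13a, Snord15a and Snord15b in Rps3, Snord82 and Snora75 in Ncl, and Snord95 and Snord96a in Rack1. Host genes of snoRNAs often belong to the group whose transcripts begin with a run of pyrimidines at the 5′ end. To show such starts, 4 regions with the word CTTTC within 10 bases of the start and 3 without it there are printed from RefSeq (GRCm38.p6). In the Rpl13a region the word lies farther from the start. They were picked with the matches known, so their mix does not stand for all spanning genes. Each covers 40 bases before to 20 bases from the annotated start, on the gene's strand, with CTTTC in capitals where it lay within 10 bases of the start on either side.
Gas5 (Snord47), chr1:161035126-161035185, plus strand: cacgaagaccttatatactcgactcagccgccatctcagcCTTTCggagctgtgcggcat
Snhg12 (Snora44, Snora16a), chr4:132308638-132308697, plus strand: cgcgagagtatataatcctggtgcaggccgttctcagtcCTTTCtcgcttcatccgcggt
2410006H16Rik (Snord49a, Snord49b), chr11:62602837-62602896, plus strand: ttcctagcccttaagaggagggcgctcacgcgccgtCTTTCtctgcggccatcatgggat
Rplp2 (Snora52), chr7:141447611-141447670, plus strand: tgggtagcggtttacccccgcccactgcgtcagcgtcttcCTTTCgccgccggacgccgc
Rpl13a (Snord35a, Snord33), chr7:45128726-45128785, minus strand: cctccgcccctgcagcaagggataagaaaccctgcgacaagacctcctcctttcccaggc
Rps3a1 (Snord73b), chr3:86142649-86142708, minus strand: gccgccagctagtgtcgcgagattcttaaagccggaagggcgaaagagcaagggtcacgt
Ncl (Snord82, Snora75), chr1:86359436-86359495, minus strand: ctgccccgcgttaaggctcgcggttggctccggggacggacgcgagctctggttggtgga

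The word CTTTC, chosen with these start regions in view, was found in the sense direction within 10 bases of the start in 6 of the 26 start regions of 25 spanning genes (23.1%), against 801 of 32851 start regions in the whole table (2.44%). Its reverse, GAAAG, was found in 1 of the 26 (3.8%) and in 734 of all (2.23%). Gas5 has a second annotated start without the word. The match is a description of these letters only.

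As checks of the labels, the main probe set of Atf7 was at 9.97 ± 0.11 on the log2 scale in WT and 7.08 ± 0.10 in KO (SD, n = 4 each). All 11 macrophage markers tested, among them Adgre1, Csf1r, Gata6 and Timd4, had mean levels above the background cut. The same held for 12 of 15 B cell markers and all 8 markers of dividing cells, so passing the cut does not identify the cells. Median signal per array was 107.1 to 114.6 on the linear scale, and arrays of a group correlated at 0.985 to 0.996 across genes. No source used here gives dates or batches of the arrays, and the number of arrays limits the precision.

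The levels of the 2 classes overlapped widely. Over all arrays the box C/D median was 7.74 (range 6.40 to 11.16) and the box H/ACA median 8.06 (6.47 to 11.84), beside 8.01 for all genes tested. The brightest probe sets were those of Snora52, which lies in the ribosomal protein gene Rplp2, at 11.84, Snord57 in the box C/D core protein gene Nop56 at 11.16, Snora44 in Snhg12 at 10.37 and Snord82 in the nucleolin gene Ncl at 10.25. Just inside the cut lay Snord96a at 6.40, Snora75 at 6.47, Snord49a at 6.50 and Snora33 at 6.51, and just outside it lay Snord22 at 6.31, Snord42a at 5.97, Snord85 at 5.81 and Snora41 at 5.71. Such levels belong to different probe sets and give no order of abundance. The median SD within groups was 0.15 for box C/D and 0.13 for box H/ACA members, above the 0.097 of all genes. The box C/D RNAs are shorter, with a median length of 77 nucleotides against 128.5. Of the 4 members with a further probe set, Snora30 and Snord118 had a copy with identical values, and the probe sets of Snora3 and Snora21 differed by at most 0.078 and 0.25 after centring.

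Nearly all members differed somewhere among the 7 groups. In the limma F test with Benjamini-Hochberg adjustment, 38 of 39 varied, Snord95 in Rack1 being the exception, beside 74.3% of all genes tested. The lowest group mean was that of KO in 14 of 18 box H/ACA and 10 of 21 box C/D members. The highest was that of PGN, IMQ or BG in 15 box H/ACA and 19 box C/D members. Among these are Snora33, Snord118, Snord47 and Snord49a, which are members only through those groups. No share over all genes is given for the lowest and highest groups, so these counts are a description. The range of group means spanned 2.82 for Snord118, 2.36 for Snord49b, 2.21 for Snord73b and 1.82 for Snord47, all box C/D, while the widest among box H/ACA members was 1.65, for Snora74a. The lowest means of Snord118 and Snord47 lay below the cut, so their ranges have no exact lower end. Both are members only through PGN, IMQ and BG, so their wide ranges are not taken as support. The narrowest range was the 0.18 of Snord95.

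**Figure D1:**
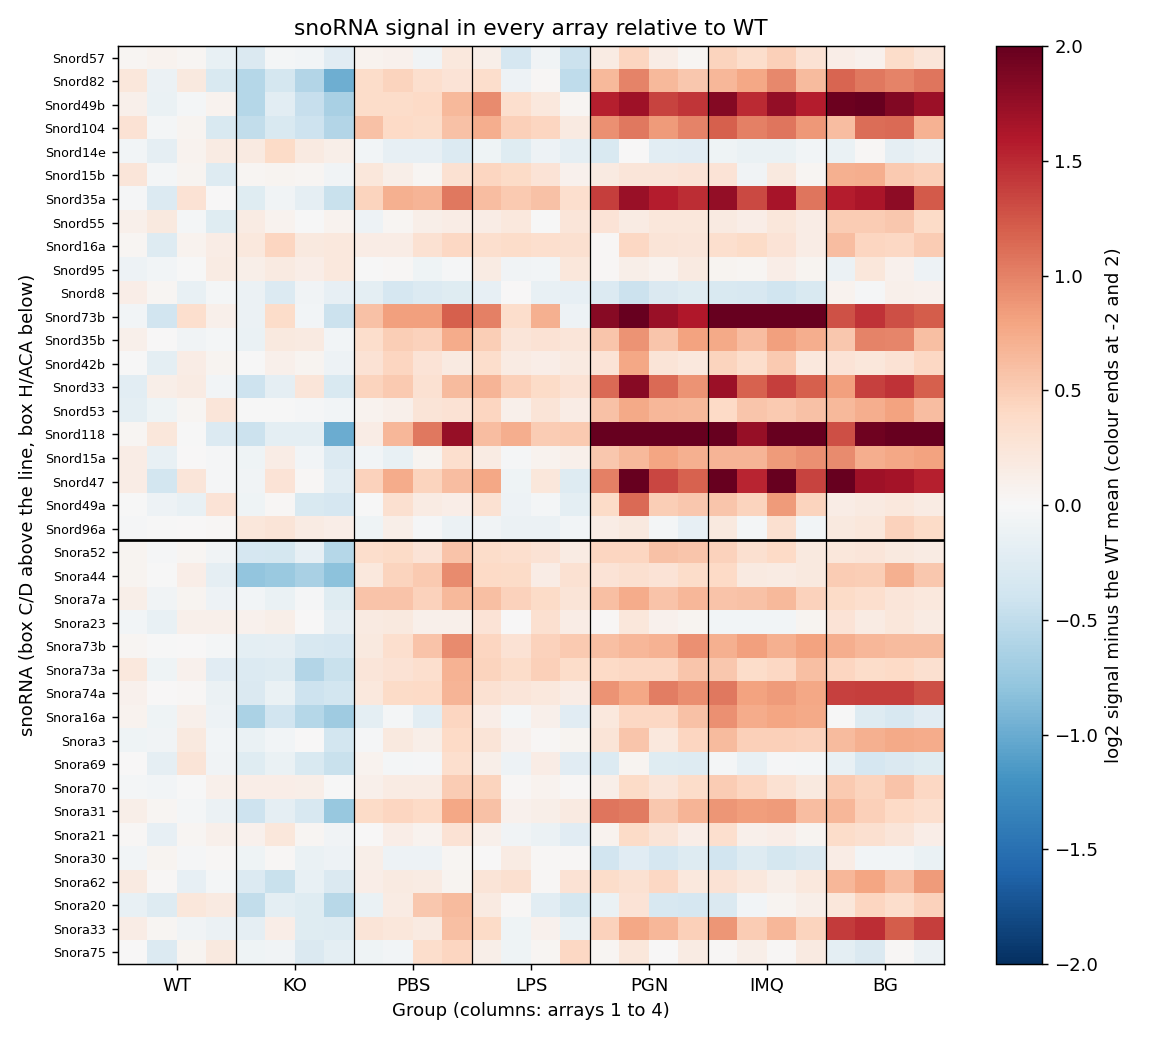
Log2 signal of each of the 39 snoRNAs (rows, ordered by level within the class) in each of the 28 arrays (columns), minus the mean of the 4 WT arrays; red is above and blue below WT, and the colour ends at -2 and 2. Snord49b, Snord35a, Snord73b, Snord118 and Snord47 are darkest in PGN, IMQ and BG, and Snora44 is blue, below the WT mean, in all 4 KO arrays. Snord118 and Snord47 are members only through PGN, IMQ and BG.

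The distance between the class averages was not the same in all groups. Its absolute size depends on the probe sets and has no meaning of its own. Mean box C/D level minus mean box H/ACA level was -0.39 ± 0.008 in WT, -0.38 ± 0.07 in PBS and -0.36 ± 0.06 in LPS (SD, n = 4 each). It was -0.24 ± 0.04 in KO. In PGN it was -0.004 ± 0.09, in IMQ 0.02 ± 0.08 and in BG -0.02 ± 0.08. The 12 arrays of PGN, IMQ and BG lay between -0.12 and 0.12, and the other 16 arrays between -0.47 and -0.21. Without the 4 members that depend on PGN, IMQ and BG, the difference was -0.23 in WT, -0.06 in KO, -0.26 in PBS, -0.22 in LPS, 0.04 in PGN, 0.07 in IMQ and 0.11 in BG. The lowest PGN array, at -0.04, then lay below the highest KO array, at -0.03, while all arrays of PGN, IMQ and BG were above those of WT, PBS and LPS. The box C/D mean was 7.67 ± 0.07 in WT, 7.96 ± 0.10 in PBS, 8.40 ± 0.15 in PGN, 8.43 ± 0.11 in IMQ and 8.45 ± 0.06 in BG. The box H/ACA mean went from 8.34 ± 0.16 in PBS to 8.40 ± 0.07, 8.42 ± 0.04 and 8.48 ± 0.03 in the same 3 ligand groups, whose arrays overlapped those of PBS. No test was made of these averages, since the members were chosen on the same arrays.

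**Figure D2:**
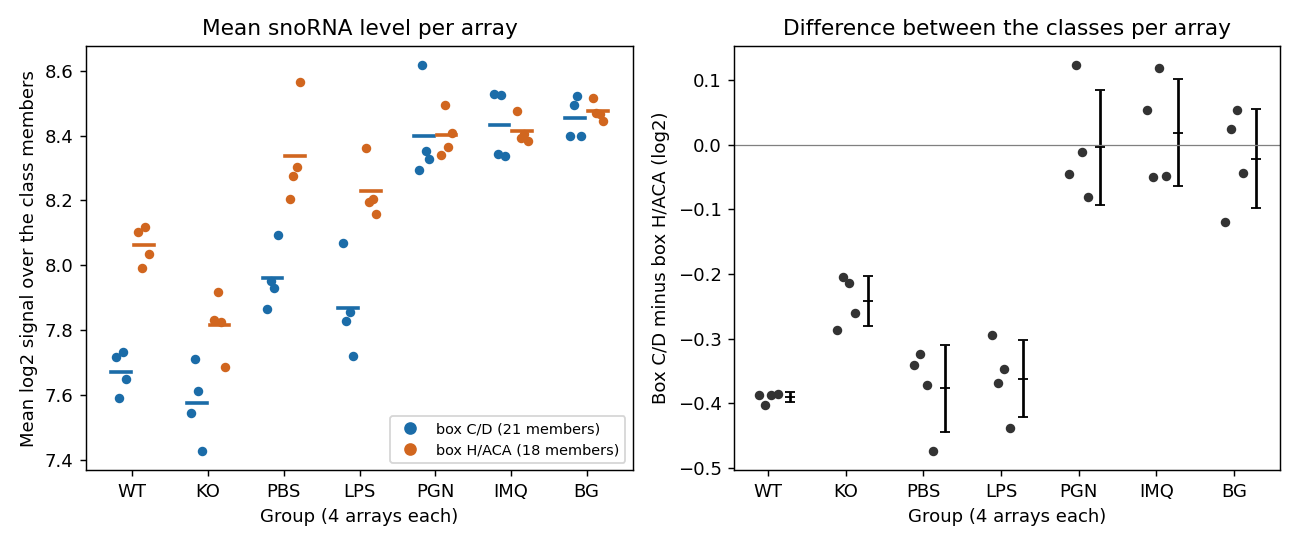
Left, mean log2 signal over the 21 box C/D and 18 box H/ACA members in each array, with the group mean as a bar; right, the difference between the class means per array, with the group mean and SD. The difference lies near 0 in PGN, IMQ and BG and below -0.2 in every array of the other 4 groups; without the 4 members named in the text, PGN overlaps KO.

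The comparison of KO with WT addresses the role of ATF7. Some snoRNAs of both classes differed without ATF7, most of them lower in KO. Of the 39 members, 15 passed the limma test (Benjamini-Hochberg adjusted p under 0.05), 13 lower and 2 higher in KO, beside 28.3% of all genes called (10.7% lower and 17.7% higher). Among box H/ACA members 9 of 18 fell and none rose, with a median change of -0.27, and among box C/D members 4 of 21 fell and 2 rose, with a median of -0.06. Leaving out 1 array moved the box C/D median between -0.12 (without WT array 2) and 0.002 (without KO array 4). The difference between the classes was not tested. The median change of all genes was 0.005. After median centring of the arrays, 10 were lower and 4 higher.

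Snora44, in the noncoding host Snhg12, had the largest fall. Its log2 signal was 10.25, 10.19, 10.33 and 10.02 in the WT arrays and 9.41, 9.46, 9.54 and 9.38 in the KO arrays. Every KO array was below every WT array, and the mean fell by 0.75 ± 0.09 (SE), or 1.68-fold (limma, adjusted p = 1.35e-06). Snora16a, from the same host, was at 8.63, 8.48, 8.65 and 8.46 in WT and 7.93, 8.17, 7.98 and 7.85 in KO. These groups did not overlap either, and Snora16a fell by 0.57 ± 0.11 (adjusted p = 0.000201). Snora73a and Snora73b, the U17 RNAs of Snhg3 that act in cutting the small-subunit rRNA precursor, fell by 0.40 ± 0.09 and 0.26 ± 0.10 (adjusted p = 0.00113 and 0.0426). Snora74a, which is U19 and lies in Snhg4, fell by 0.30 ± 0.08 (adjusted p = 0.00449). In all, 5 of the 9 box H/ACA members that fell lay in noncoding host genes, namely Snhg12, Snhg3 and Snhg4. Members of a shared host are not independent, and a link with the type of host was not tested. The other 4 lay in protein-coding genes: Snora52 in Rplp2 (fall of 0.35 ± 0.07, adjusted p = 0.000285), Snora31 in Tpt1 (0.42 ± 0.13, 0.0127), Snora62 in Rpsa (0.29 ± 0.08, 0.00456) and Snora69 in Rpl39 (0.28 ± 0.10, 0.0286).

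Snord82, from an intron of the gene for nucleolin, fell most among box C/D members. It was at 10.16, 9.82, 10.13 and 9.62 in WT and 9.36, 9.59, 9.35 and 8.95 in KO. The groups were close but separate, and the mean fell by 0.62 ± 0.14 (limma, adjusted p = 0.0011). Snord49b, Snord104 and Snord8 fell by 0.47 ± 0.13, 0.45 ± 0.12 and 0.16 ± 0.06 (adjusted p = 0.00633, 0.00489 and 0.0475). Both members that rose were box C/D. Snord16a, in the ribosomal protein gene Rpl4, was at 7.81, 7.52, 7.85 and 7.93 in WT and 8.00, 8.21, 7.98 and 7.99 in KO, a gain of 0.26 ± 0.08 (adjusted p = 0.0159). Snord14e, a U14 RNA in the heat shock gene Hspa8, gained 0.22 ± 0.07 with overlapping arrays (adjusted p = 0.0225). Both gains lost the call without KO array 2, without WT array 2, in the fit of KO and WT alone and with array weights, and Snord14e also without WT array 1. Among the falls, those of Snora73b, Snora69, Snord8 and Snora31 were lost without 7, 4, 6 and 1 of the 8 arrays, the last without KO array 4. Snord118, Snord47 and Snora33 were at or below the background cut in all 8 arrays of KO and WT, so no fold is given there.

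The knockout arrays differed from WT in markers of the macrophages and of other cells. Of 11 macrophage markers 3 were higher and 4 lower, among them the transcription factor Gata6 (-1.51, limma adjusted p = 8.58e-10) and the Fc receptor Fcgr1 (1.16, adjusted p = 1.25e-05). Of 13 tested B cell markers, which include Cd79a, Ms4a1 and Pax5, 11 were lower in KO with a median change of -1.02, and their summed linear signal was 3209 to 4728 in KO against 4828 to 7960 in WT. All 8 markers of dividing cells were lower, with summed signals of 865 to 1233 against 1634 to 2702, and 2 of 4 dendritic cell, 1 of 3 T and NK cell (Cd2) and 1 of 2 eosinophil markers (Il5ra) were lower. The B cell markers Cr2, Fcer2a and Vpreb3 had means below the cut. In a bulk sample fewer cells of a type and less RNA per cell cannot be told apart. With the mean B cell marker signal of each array as a covariate, 2 of the 39 snoRNAs were called by limma. They were Snora44 (-0.79, adjusted p = 0.0032) and Snora31 (-0.66, adjusted p = 0.0453), both still lower in KO. Because the summed B cell signals of KO and WT did not overlap, this fit cannot tell genotype from B cell signal. The share of all genes called with the covariate is not given, so the lost calls are not particular to snoRNAs as far as is shown. The part of dividing cells and of the other markers in these differences was not tested.

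**Figure D3:**
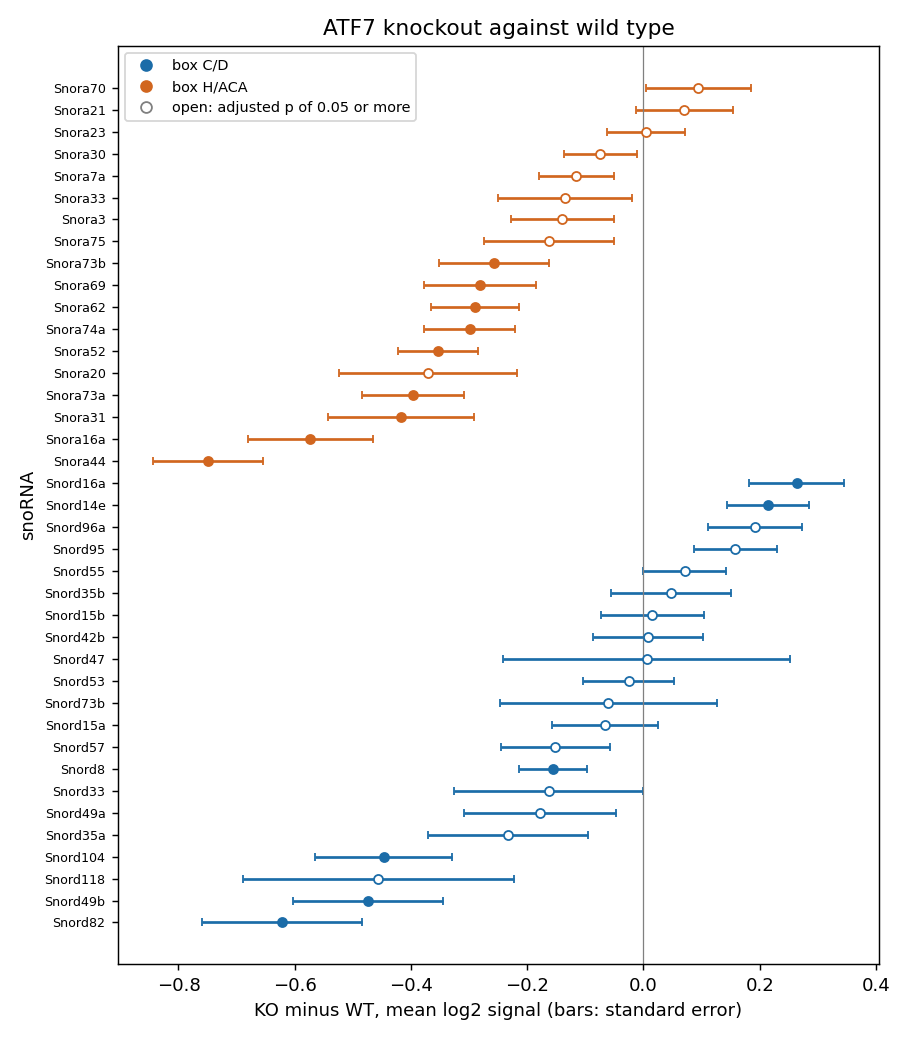
Difference in mean log2 signal, KO minus WT, for each snoRNA with its standard error from the limma fit (n = 4 per group); filled points have an adjusted p under 0.05. Of the 15 filled points, 13 lie below 0, led by Snora44 at -0.75, and both points above 0 are box C/D.

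The genes spanning the snoRNAs gave no uniform picture in KO. Of 20 that could be tested, 12 were lower and 3 higher, with a median of -0.15. Over 22 pairs of a snoRNA and a tested spanning gene, both were called in the same direction in 2 pairs (Snora31 with Tpt1, Snora62 with Rpsa) and in opposite directions in 1, Snord16a, which gained 0.26 while Rpl4 fell by 0.27 ± 0.04 (adjusted p = 2.52e-05). In 13 pairs only the gene was called and in 4 only the snoRNA. Gas5, a noncoding host, fell by 0.37 ± 0.06 (adjusted p = 6.98e-05), and Rps12 fell by 0.48 ± 0.06 (adjusted p = 2.79e-06). The hosts Snhg12, Snhg3, Snhg4 and 2410006H16Rik were not among the genes tested, so the members within them had no tested spanning gene.

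Called genes of the snoRNA machinery lists were higher in KO, except for Smg6 and the noncoding host Gas5. Beside them, 17.7% of all genes were higher in KO and 10.7% lower. Of the 5 box C/D core protein genes tested, Nop56 rose by 0.28 ± 0.06 (adjusted p = 0.000394) and Rrp9, which binds the U3 RNA, by 0.31 ± 0.07 (adjusted p = 0.00113). Of 6 box H/ACA genes only Shq1, a chaperone of dyskerin, rose, by 0.32 ± 0.07 (adjusted p = 0.00113). Assembly and transport genes had 5 of 16 higher and none lower, led by Tcof1 and Nufip1. Trimming and decay genes had 6 of 19 higher and none lower, among them exosome subunits Exosc1, Exosc9 and Exosc10. Of 18 genes for ribosomal RNA transcription, 3 rose (Rrn3, Nop2 and Myc). Among 7 nonsense-mediated decay genes 3 rose and 1, Smg6, fell. Of 5 noncoding hosts on the list, Gas5 alone differed, being lower in KO. The shares of all genes apply to each of these counts. For box H/ACA genes (1 of 6) and ribosomal RNA transcription genes (3 of 18) the higher counts lie near the share of all genes. The lists were not tested as sets.

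The LPS comparison asks what remains 3 weeks after the ligand that the series centres on. No snoRNA passed the limma test between LPS and PBS, beside 9.88% of all genes (4.36% higher and 5.52% lower), and 9 of 39 had an unadjusted p under 0.05, against 4453 of 13512 genes. The class medians were -0.06 for box C/D and -0.10 for box H/ACA, and -0.01 for all genes. Snord82 came nearest. It was at 10.30, 10.38, 10.28 and 10.21 in PBS and 10.28, 9.84, 9.95 and 9.42 in LPS, so the arrays overlapped through LPS array 1, and the difference was -0.42 ± 0.14 (adjusted p = 0.0509). LPS array 1 had the highest signal of its group in 26 of the 39 members. Without LPS array 1, 2 members were called, and without PBS array 1, 3, all of them lower in LPS.

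Among related genes, the box C/D core protein gene Snu13 was higher after LPS by 0.18 ± 0.04 (limma, adjusted p = 0.0181), and Naf1, needed to assemble box H/ACA particles, was lower by 0.39 ± 0.09 (adjusted p = 0.0195). Ncl and Npm1, abundant nucleolar proteins, were lower by 0.21 ± 0.06 and 0.31 ± 0.09 (adjusted p = 0.0402 and 0.038). In assembly 1 of 16 genes was higher (Tcof1), in decay 2 of 19 were lower (Dis3 and Zcchc8), and in nonsense-mediated decay and among noncoding hosts none of 7 and none of 5 was called. Other small noncoding RNAs, a list of microRNA genes, small Cajal body RNAs and small nuclear RNAs, had 16 of 123 called higher and 3 lower.

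PGN, IMQ and BG were each followed by higher signals of many box C/D members. These comparisons share the 4 PBS arrays, so their similarity is not independent. After PGN, 12 of 39 members were higher and 1 lower, beside 2.09% of all genes higher and 1.81% lower (3.91% in all). After IMQ, 13 were higher and 1 lower, beside 3.09% and 2.6% (5.69% in all). With quantile normalisation repeated, or with cyclic loess, the split after IMQ was 12 higher and 3 lower. After BG, 20 were higher and 4 lower, beside 20.2% and 21.4% (41.6% in all).

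By class, box C/D members had 10 of 21 higher after PGN, 10 after IMQ and 15 after BG, and none lower in any of the 3. Their median changes were 0.35, 0.34 and 0.43. Without Snord47, Snord118 and Snord49a, 7, 8 and 13 of 18 were higher, with medians of 0.18, 0.27 and 0.42. Box H/ACA members had 2 of 18 higher and 1 lower after PGN, 3 and 1 after IMQ, and 5 and 4 after BG (4 and 4 of 17 without Snora33), with medians of 0.08, 0.06 and 0.05. Leaving out 1 array moved the box H/ACA median between 0.058 (without PGN array 2) and 0.15 (without PBS array 4) after PGN, between 0.028 and 0.074 after IMQ, and between -0.01 (without PBS array 1) and 0.13 (without PBS array 4) after BG. Medians over all genes were 0.02 in each case. The difference between the classes was not tested.

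**Figure D4:**
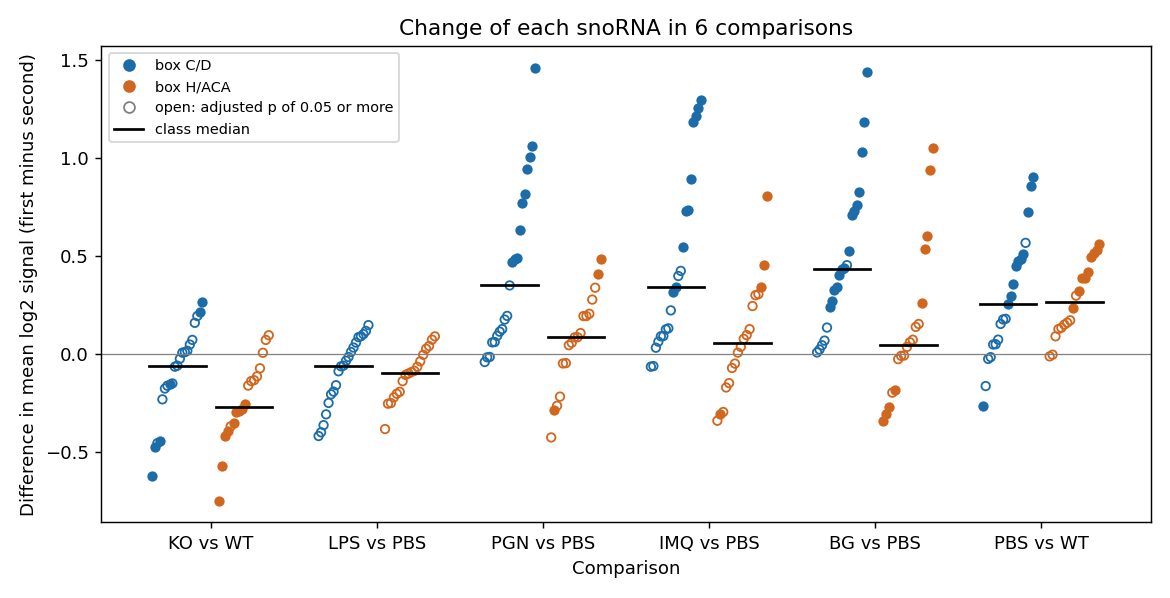
Difference in mean log2 signal of each snoRNA in 6 comparisons, box C/D in blue and box H/ACA in orange; filled points have an adjusted p under 0.05, and the black bar is the class median. Box C/D medians are 0.35, 0.34 and 0.43 after PGN, IMQ and BG, where those of box H/ACA are 0.08, 0.06 and 0.05; the PGN box C/D median is 0.18 without the 3 box C/D members that depend on these groups, and no point is filled for LPS.

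Snord118, the U8 RNA that is needed to process the large-subunit rRNAs and has its own gene, is a member only through PGN, IMQ and BG, so its higher signal there is described without a test. It was 6.08, 6.60, 6.99 and 7.68 in PBS, the widest spread of any member in that group. It was 7.97, 8.35, 8.51 and 8.35 in PGN, above every PBS array, a difference of 1.46 ± 0.23 or 2.75-fold. In IMQ it was 8.22, 7.68, 8.13 and 8.03, a difference of 1.18 ± 0.23. In BG it was 7.22, 7.88, 8.21 and 8.14, which overlapped PBS through PBS array 4, and the difference was 1.03 ± 0.23. After LPS it was 6.54, 6.65, 6.44 and 6.46, within the PBS range.

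Snord49b, from the noncoding gene 2410006H16Rik, rose with all 3 ligands. Its PBS arrays were at 9.47, 9.47, 9.50 and 9.75. The PGN arrays were at 10.66, 10.79, 10.45 and 10.52, the IMQ arrays at 10.94, 10.59, 10.85 and 10.68 and the BG arrays at 11.07, 11.11, 10.95 and 10.81, all above PBS. The rises were 1.06 ± 0.13, 1.22 ± 0.13 and 1.44 ± 0.13 (limma, adjusted p = 4.24e-05, 3.34e-06 and 3.28e-09). The LPS arrays, at 10.05, 9.44, 9.31 and 9.14, lay on both sides of PBS. Snord49a, in the same gene and a member only through PGN, IMQ and BG, was higher by 0.49 ± 0.13 after PGN, and after BG its arrays were at 6.46, 6.48, 6.51 and 6.46, inside the PBS range of 6.29 to 6.62.

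Snord47, carried by Gas5, is likewise a member only through PGN, IMQ and BG. It was at 6.33, 6.60, 6.30 and 6.48 in PBS. It was at 6.86, 8.38, 7.19 and 7.05 in PGN, a difference of 0.94 ± 0.25, and PGN array 2 stood 1 unit or more above the others. It was at 8.27, 7.39, 7.85 and 7.22 in IMQ and 7.92, 7.56, 7.53 and 7.42 in BG, differences of 1.25 ± 0.25 and 1.18 ± 0.25. Each of these groups lay wholly above PBS. The limma call after PGN was lost without PGN array 2 and without any of PBS arrays 1, 3 and 4. PGN array 2 had the highest signal of its group in 25 of the 39 members, and PBS array 4 in 28.

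Snord73b, in the ribosomal protein gene Rps3a1, was at 7.24, 7.48, 7.47 and 7.84 in PBS. It was at 8.47, 8.95, 8.37 and 8.25 in PGN and at 8.90, 8.76, 8.90 and 8.64 in IMQ, rises of 1.0 ± 0.19 and 1.29 ± 0.19 (limma, adjusted p = 0.0022 and 0.000126). In BG it was at 7.93, 8.10, 7.94 and 7.87, just above PBS, and the difference of 0.45 ± 0.19 did not pass the test (adjusted p = 0.0529). Snord73b was higher in IMQ than in BG by 0.84 (adjusted p = 0.000849) and in PGN than in BG by 0.55 (adjusted p = 0.0245).

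Both members from Rpl13a rose with the 3 ligands. The snoRNAs of this gene are known for a part in the response to lipotoxic and oxidative stress. Snord35a was at 8.03, 8.29, 8.25 and 8.62 in PBS, at 8.96, 9.30, 9.15 and 9.05 in PGN, at 9.34, 8.90, 9.22 and 8.65 in IMQ and at 9.14, 9.20, 9.36 and 8.80 in BG. Every ligand array was above every PBS array, the rises being 0.82 ± 0.14, 0.73 ± 0.14 and 0.83 ± 0.14 (limma, adjusted p = 0.000912, 0.00192 and 3.09e-05). Snord33 rose by 0.77 ± 0.16, 0.89 ± 0.16 and 0.73 ± 0.16 (adjusted p = 0.0067, 0.00133 and 0.000813). Rpl13a itself was not among the genes tested.

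Snord15a and Snord15b, both U15 RNAs within Rps3, did not move alike. Snord15a was at 6.49, 6.39, 6.60 and 6.87 in PBS and between 7.08 and 7.48 in every array of PGN, IMQ and BG, with rises of 0.63 ± 0.09, 0.73 ± 0.09 and 0.76 ± 0.09 (limma, adjusted p = 0.000179, 1.64e-05 and 3.16e-07). Snord15b differed by 0.06 after PGN (adjusted p = 0.787) and -0.06 after IMQ (adjusted p = 0.749), and rose by 0.43 ± 0.09 after BG (adjusted p = 0.000357). Rps3 was higher after BG, by 0.26 ± 0.05 (adjusted p = 0.000382). The difference between these RNAs was not tested. Snord53, in Wdr43, rose by 0.49, 0.34 and 0.52 and Snord104 by 0.47, 0.55 and 0.40 after PGN, IMQ and BG, all called, the PGN call of Snord104 being lost without any of 4 arrays.

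Box H/ACA members split after the ligands. Snora74a (U19) was at 8.41, 8.58, 8.60 and 8.88 in PBS and rose by 0.48 ± 0.08 after PGN, 0.45 ± 0.08 after IMQ and 0.94 ± 0.08 after BG (limma, adjusted p = 0.000498, 0.000771 and 9.44e-10). Its BG arrays, at 9.57, 9.58, 9.57 and 9.48, were above all others in the study. Snora33, in Rps12, which is a member only through PGN, IMQ and BG, was at 6.37, 6.34, 6.28 and 6.71 in PBS and at 7.51, 7.58, 7.32 and 7.49 in BG, a difference of 1.05 ± 0.11, and Rps12 rose by 0.68 ± 0.06 (adjusted p = 7.49e-09). Snora62 and Snora3, in Rpsa and Rpl27a, rose after BG by 0.60 ± 0.08 and 0.53 ± 0.09, and both genes were higher as well, by 0.21 ± 0.06 and 0.18 ± 0.06.

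Snora16a moved differently among the ligands. It was at 8.36, 8.51, 8.35 and 8.99 in PBS, at 9.47, 9.30, 9.35 and 9.31 in IMQ and at 8.54, 8.29, 8.24 and 8.33 in BG. The IMQ arrays were above all PBS arrays, with a rise of 0.81 ± 0.11 (limma, adjusted p = 4.02e-05), while BG overlapped PBS. After PGN it rose by 0.41 ± 0.11 with overlapping arrays (adjusted p = 0.0293), a call lost without any of 6 arrays. IMQ exceeded BG by 1.01 (adjusted p = 6.37e-08) and PGN exceeded BG by 0.61 (adjusted p = 8.58e-05). Snora44, from the same host, was lower in IMQ than in BG by 0.33 (adjusted p = 0.0072).

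A few box H/ACA members fell. Snora30, in the chromatin remodeller gene Srcap, was at 7.40, 7.18, 7.18 and 7.32 in PBS and below 7.10 in every PGN and IMQ array, falls of 0.28 ± 0.06 and 0.31 ± 0.06 (limma, adjusted p = 0.00845 and 0.00351). After BG, Snora69, Snora75, Snora7a and Snora52 fell by 0.35, 0.30, 0.27 and 0.18 (adjusted p = 0.00538, 0.0304, 0.00145 and 0.0337), and the calls of Snora75 and Snora52 were each lost without any of 4 arrays. Snora75 lies in Ncl together with Snord82, which rose by 0.71 ± 0.14 after BG (adjusted p = 0.000188), the BG arrays at 11.09, 10.99, 10.93 and 11.00 lying above the PBS arrays at 10.30, 10.38, 10.28 and 10.21. Ncl did not differ detectably, at -0.04 ± 0.06 (adjusted p = 0.673).

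Direct comparisons between ligands set no mean against PBS, although all 28 arrays enter the estimate of the spread, and comparisons with the same ligand share its 4 arrays. LPS was lower than PGN in 21 of 39 members and higher in 2, beside 9.1% and 2.98% of all genes. It was lower than IMQ in 20 and higher in 3 (12.7% and 6.45%), and lower than BG in 24 and higher in none (18.2% and 16.7%, or 34.9% in all). In these 3 comparisons 13, 13 and 16 of the 21 box C/D members were lower in LPS, and 8, 7 and 8 of the 18 box H/ACA members. Without the 4 members that depend on PGN, IMQ and BG these counts were 10, 10 and 14 of 18 and 7, 6 and 7 of 17. PGN and IMQ did not differ in any member, nor in any of the 13512 genes, after adjustment by limma, with 2 members and 669 genes at an unadjusted p under 0.05. PGN was lower than BG in 14 members and higher in 6 (12.9% and 18.9% of genes, 31.8% in all), and IMQ was lower than BG in 12 and higher in 5 (15.4% and 21.3%, 36.7% in all). With the B cell signal as a covariate the PGN and BG comparison had 12 calls and the IMQ and BG comparison 9, without a share of all genes to set beside them.

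The spanning genes changed less than the snoRNAs after PGN and IMQ. Their changes ran from -0.13 to 0.29 after PGN and from -0.14 to 0.45 after IMQ, with 2 of 20 genes higher and 1 lower, and 4 higher and none lower. In 22 pairs, both were called in the same direction in 1 pair after PGN and in 1 after IMQ, in each case Snord73b with Rps3a1, which rose by 0.29 ± 0.08 and 0.45 ± 0.08. The snoRNA alone was called in 4 and 6 pairs, which include Snord47 with Gas5 each time. After BG 8 of 20 spanning genes were higher and 5 lower, beside 20.2% and 21.4% of all genes. In 7 pairs both were called in the same direction, in 5 only the snoRNA, in 6 only the gene and in 3 neither. The 7 include Snora33 with Rps12 and Snord47 with Gas5. As Snora33 and Snord47 are members only through PGN, IMQ and BG, these pairs are not taken as support. The opposite case was Snora70, which rose by 0.26 while Rpl10 fell by 0.23. Gas5, the host of Snord47, was at 0.06 ± 0.06 after PGN and 0.07 ± 0.06 after IMQ (adjusted p = 0.643 and 0.558), and rose by 0.35 ± 0.06 after BG (adjusted p = 7.36e-05).

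**Figure D5:**
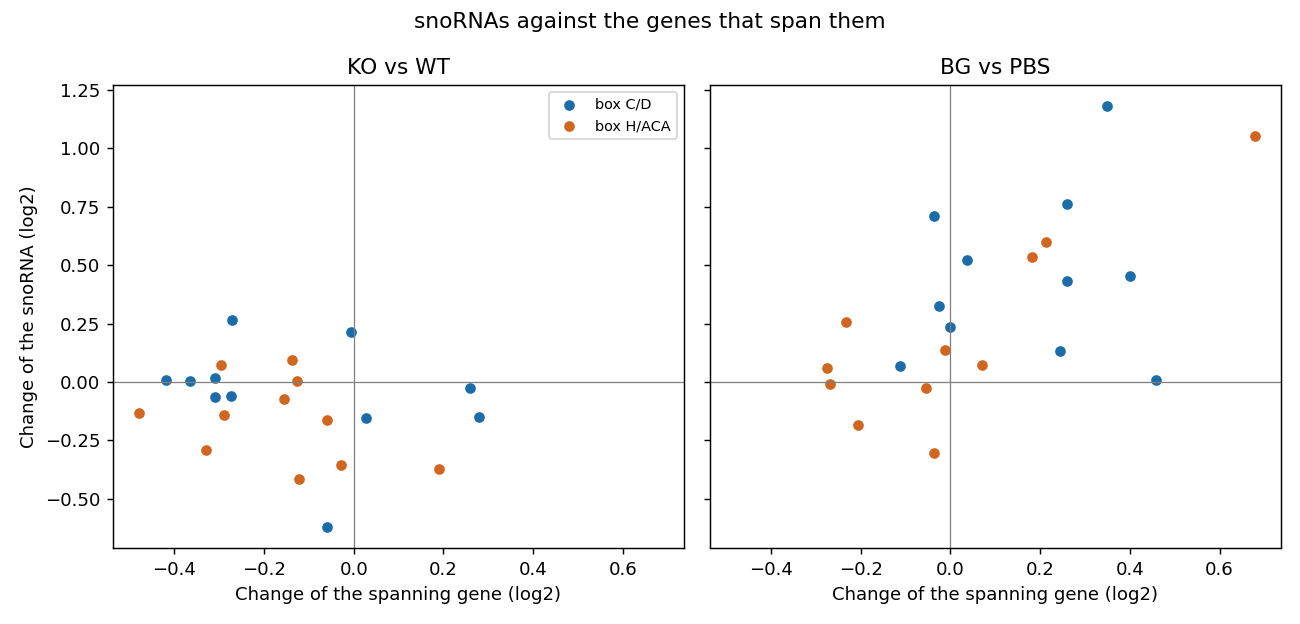
Change of each snoRNA against the change of the gene whose span holds it (log2 differences), for the 22 pairs with a tested gene, in KO against WT and BG against PBS. In KO most genes lie left of 0 (12 of 20 called lower), and in BG the upper right holds most of the 7 pairs called in the same direction, with Snora33 and Rps12 farthest out. Snora33 and Snord47, which pairs with Gas5, are members only through PGN, IMQ and BG.

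Of the snoRNA machinery, many genes differed after BG, as did 41.6% of all genes, 20.2% higher and 21.4% lower. Of 5 box C/D core protein genes 4 rose: Rrp9 by 0.49 ± 0.07, Nop58 by 0.45 ± 0.12, the methyltransferase Fbl by 0.27 ± 0.05 and Nop56 by 0.24 ± 0.06 (limma, adjusted p = 2.97e-06, 0.00373, 0.000366 and 0.00104). Of 6 box H/ACA genes Gar1 rose by 0.29 ± 0.08, while Naf1 fell by 0.64 ± 0.09 and the pseudouridine synthase Dkc1 by 0.26 ± 0.09 (adjusted p = 0.00308, 5.92e-06 and 0.0166). The assembly list had 7 of 16 higher, led by the ATPases Ruvbl2 and Ruvbl1, and 3 lower, including Tgs1, which forms the trimethyl cap. The decay list had 3 of 19 higher and 4 lower, and nonsense-mediated decay 2 of 7 lower. Of 18 genes for ribosomal RNA transcription 5 rose, among them Myc by 0.59 ± 0.13, and 2 fell. Gas5 and Snhg15 were the 2 of 5 noncoding hosts that rose. After PGN and IMQ each, Snu13 rose (0.25 ± 0.04 both times) and Shq1 fell (0.36 ± 0.07 and 0.39 ± 0.07), Ncbp2 was the only assembly gene called, and no gene of the decay, nonsense-mediated decay or ribosomal RNA transcription lists was called.

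Other small noncoding RNAs had 48 of 123 higher and 3 lower after BG, 4 and 2 after PGN, and 4 and 3 after IMQ. Their median changes were 0.14, 0.05 and -0.01. Few marker genes were called after PGN and IMQ. None of 13 B cell markers was called after PGN and 2 were higher after IMQ, and no dividing cell marker was called. Of 11 macrophage markers, Csf1r alone was called, higher after IMQ (0.14, limma adjusted p = 0.00776). Some differences that did not pass were larger. Timd4 was higher by 0.56 after PGN and 0.71 after IMQ (limma, adjusted p = 0.312 and 0.152). Its SD was 0.97 in the PBS arrays that these comparisons share, against 0.09 in PGN and 0.16 in IMQ. Ccr7 was lower by 0.53 after PGN and 0.38 after IMQ (adjusted p = 0.118 and 0.24). Fcgr1 was higher by 0.57 after PGN and 0.55 after IMQ (adjusted p = 0.0586 and 0.0589). Cd209a was lower by 0.67 after IMQ (adjusted p = 0.0595). After BG, 5 B cell markers were lower and 1 higher, with summed signals of 4912 to 5472 against 5894 to 7587 in PBS, and 6 of 8 dividing cell markers were lower. Of 4 dendritic cell markers 2 were lower and 1, Zbtb46, higher, and of 11 macrophage markers 4 were lower, led by Gata6 (-0.93, limma adjusted p = 7.84e-07), and none higher. With the B cell signal as a covariate, 18 snoRNAs were higher and 2 lower after BG. For that fit no share of all genes is given, and the summed B cell signals of BG and PBS did not overlap. The part of the other markers was not tested.

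PBS-injected mice were compared with uninjected WT mice as a measure of the control itself, and injection, age and time of the experiment cannot be told apart here. Of 39 members 19 were higher in PBS and 1 lower, beside 19.7% and 12.9% of all genes (32.7% in all). Both classes took part, with 10 of 21 box C/D members higher and 1 lower and 9 of 18 box H/ACA members higher. The class medians were 0.25 and 0.27, against 0.02 for all genes. Without PBS array 4, 14 members were higher and 1 lower, and the box H/ACA median was 0.17.

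Snora7a, in Rpl32, had the smallest p. It was at 9.48, 9.29, 9.41 and 9.27 in WT and 9.93, 9.94, 9.83 and 10.00 in PBS, a clear separation with a difference of 0.56 ± 0.06 (limma, adjusted p = 1.8e-06). Snord73b and Snord35a were higher in PBS by 0.86 ± 0.19 and 0.72 ± 0.14, Snora44 and Snora73b by 0.53 ± 0.09 and 0.52 ± 0.10, and Snora52 by 0.39 ± 0.07. Snord118 was at or below the cut in all WT arrays (5.97, 6.17, 5.93 and 5.66) and at least 1.43-fold higher in PBS, computed against the cut (adjusted p = 0.00549). Snord8, in Chd8, was the exception, lower by 0.27 ± 0.06 (adjusted p = 0.00177).

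The spanning genes did not follow. Of 20, 1 was higher and 6 lower in PBS, no pair was called in the same direction, and 4 pairs were called in opposite directions. Snora52 was higher by 0.39 while Rplp2 was lower by 0.31 ± 0.07 (limma, adjusted p = 0.00168), and Snord16a was higher by 0.25 while Rpl4 was lower by 0.30 ± 0.04 (adjusted p = 2.17e-05). The other small noncoding RNAs had 41 of 123 lower and 13 higher, with a median of -0.17. In the machinery lists, 1 of 5 box C/D genes was lower (Snu13), 1 of 6 box H/ACA genes higher and 2 lower, 3 of 16 assembly genes higher and 1 lower, 5 of 19 decay genes higher, 2 of 7 nonsense-mediated decay genes higher and 5 of 18 ribosomal RNA transcription genes higher. Of 13 B cell markers 1 was higher and 1 lower, and none of 8 dividing cell markers was called. All 3 tested markers of T and NK cells were lower, as was 1 of 2 eosinophil markers (Siglecf). Of 11 macrophage markers 2 were higher (Cd68 and Mertk) and 2 lower (Timd4 and Csf1r). Cd68 differed by 0.29 and Timd4 by -0.77 (limma, adjusted p = 0.000156 and 0.0435), Timd4 with an SD of 0.97 in PBS. Of 4 dendritic cell markers 1 was higher (Cd209a, 0.86, adjusted p = 0.00377) and 1 lower (Zbtb46). The part of these markers was not tested.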

How the data were processed

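The authors' deposited values are linear intensities of probe sets on Affymetrix arrays, summarised by RMA in Affymetrix Expression Console, per the submitters' processing notes. Per the labels' protocols, Trizol-extracted RNA was amplified (WT Expression Kit) and biotin-labelled. No source used here names the software version or genome build. RMA equalises the distributions of the arrays, so a shift shared by most genes cannot be seen. A probe set does not tell a mature snoRNA from a precursor that contains it.

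Of 35556 probe sets, 21789 have 1 gene symbol, 1621 several and 12146 none. The log2 was taken here. Probe sets above 6.32 (the unrounded percentile was used) in at least 4 arrays were kept, and the brightest of each symbol was tested (13512 genes). A limma 3.58.1 model (R 4.3.3) estimated a mean for each group from all 28 arrays together, with an intensity trend. Benjamini-Hochberg adjustment ran over all genes of a comparison. Calls are adjusted p-values under 0.05. For a group wholly at or below the cut, the fold is a bound against it or is left out.

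On simulated KO and WT groups (13512 genes, 200 shifted) the fit recovered 93% of shifts of 0.5 and 98% of shifts of 1, with 13 of 204 calls false. The simulated noise was independent between genes, whereas many members moved together in some real arrays. The share of false calls therefore need not hold for these data. The labels do not tie same-numbered arrays of different groups to one animal or batch, and they were not paired. Spanning genes come from RefSeq's gene table, without coordinates, since the files name no build. Alternatives were the replicate number as a block, other normalisations (median centring, quantile, cyclic loess), no filter and a stricter filter, every probe set of a symbol, no intensity trend, only the compared groups, array weights, the B cell markers as a covariate, and leaving out each array.

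The members, gene lists and tests were chosen with earlier results of these data known. Named members are the 5 highest and 5 lowest of each class, up to 6 called per class and comparison with the smallest p, all called in 2 or more comparisons, those sharing a spanning gene, and the 4 on each side of the cut. Other named genes are those spanning named members and up to 3 called genes per list and comparison. A few further list genes were named after their values were seen. Plots used matplotlib 3.10.9 (Python 3.11.15).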

Additional observations from a re-analysis of the deposited data

Results flagged for a closer look

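Of 294 sets of 4 arrays (39 members and 3 class summaries in 7 groups), 22 had 1 array far from the other 3 by Dixon's test, where chance gives about 1 in 20. Arrays that stood high were as follows. In WT array 3, Snora3 was at 8.26, above 7.98 to 8.01 in the other 3. In KO array 2, Snord16a was at 8.21, above 7.98 to 8.00 in the other 3. In PBS array 4, Snord49b was at 9.75, above 9.47 to 9.50 in the other 3, Snora70 was at 7.91, above 7.50 to 7.56 in the other 3, and Snora31 was at 7.93, above 7.53 to 7.58 in the other 3. In LPS array 1, Snora70 was at 7.85, above 7.42 to 7.46 in the other 3, and Snord35b was at 7.64, above 7.39 to 7.43 in the other 3. In LPS array 2, Snord8 was at 7.90, above 7.74 to 7.76 in the other 3, and Snora30 was at 7.46, above 7.30 to 7.31 in the other 3. In PGN array 2, Snora69 was at 7.98, above 7.65 to 7.68 in the other 3, and Snord42b was at 7.95, above 7.38 to 7.45 in the other 3. In PGN array 4, Snora73a was at 9.13, above 8.96 to 8.99 in the other 3. In IMQ array 1, Snora44 was at 10.59, above 10.37 to 10.39 in the other 3, and Snora3 was at 8.69, above 8.52 to 8.54 in the other 3. In IMQ array 4, Snora23 was at 9.48, above 9.37 in each of the other 3. Arrays that stood low were as follows. In WT array 4, Snord57 was at 10.94, below 11.13 to 11.15 in the other 3. In KO array 4, Snora70 was at 7.39, below 7.52 to 7.53 in the other 3. In IMQ array 2, Snora69 was at 7.78, below 7.88 to 7.89 in the other 3. In IMQ array 3, Snord8 was at 7.50, below 7.59 to 7.60 in the other 3. In IMQ array 4, Snora31 was at 7.77, below 7.99 to 8.03 in the other 3. In BG array 4, Snora74a was at 9.48, below 9.57 to 9.58 in the other 3. The distance between the class means was -0.40 in WT array 2, against -0.39 in each of the other WT arrays, where the 4 WT values had an SD of only 0.008. PBS array 4 stood out for 3 members, and without it PBS exceeded WT in 14 members, with 1 lower, in place of 19 and 1.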

How the results depend on the processing

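Of the calls of single members under all alternatives, none changed direction where called, 164 were lost, 58 were gained and 4170 kept their side of the threshold. Leaving out 1 array at a time gave 11 to 14 called members in KO against WT, 0 to 3 in LPS, 9 to 13 in PGN, 12 to 15 in IMQ and 20 to 24 in BG, each against PBS, and 15 to 21 in PBS against WT. For PGN against IMQ this range was 0 to 0. With the mean B cell marker level as a covariate, calls went from 15 to 2 in KO against WT, from 20 to 12 in PGN against BG and from 17 to 9 in IMQ against BG. How far the calls over all genes fell in these fits is not given. Median centring gave 1 call in LPS against PBS in place of 0. Array weights gave 1 call in PGN against IMQ in place of 0. The stricter filter, which drops the dimmer members, took the box C/D median after PGN from 0.35 to 0.18.

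With the replicate number as a block the counts were 14 in KO against WT, 1 in LPS, 13 in PGN, 15 in IMQ and 24 in BG against PBS, and 19 in PBS against WT. Same-numbered arrays correlated in their deviations at -0.35 to 0.45, over 0.1 in 9 of 24 pairs, so the numbers were not taken as pairs. The causes were not tested. Members near the cut have signals close to background, which limits their fold.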

Other observations

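A further 41 snoRNA probe sets carry several gene symbols and belong to none of the counts above. Of the 35 bright enough to be tested, 3 were higher and 2 lower in KO than in WT. Against PBS, 0 were higher and 1 lower in LPS, 2 and 0 in PGN, 5 and 0 in IMQ and 6 and 2 in BG. In PBS against WT, 4 were higher and 1 lower. In the same order, 28.3%, 9.88%, 3.91%, 5.69%, 41.6% and 32.7% of all genes were called in the main fit. Median differences of the 35 were -0.19, -0.47, -0.75, -0.52, 0.27 and 0.32 on the log2 scale. The medians after PGN and IMQ thus lay below 0, unlike those of the members, while every called probe set lay above it. The 35 were not split by class.

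Probe sets with no gene symbol, 6954 of which were bright enough to test, offered a view outside the annotated genes. Between PGN and IMQ 5 of them were called (0.0719%), against 2403 (34.6%) between BG and PBS and 657 (9.45%) between KO and WT.

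Array by array, KO array 4 had the lowest signal of its group in 27 of the 39 snoRNAs and KO array 2 the highest in 27. PBS array 4 was highest in 28, LPS array 1 in 26 and PGN array 2 in 25, while in WT, IMQ and BG no array was highest in more than 17. Across members, Spearman's rho between snoRNA length and change ran from -0.21 to 0.22 in the 6 comparisons over all 39, from -0.24 to 0.43 over the 21 box C/D and from -0.07 to 0.46 over the 18 box H/ACA members. In LPS against PBS it was 0.22, 0.43 and 0.46. In PGN and IMQ against PBS it was -0.17 and -0.21 over all members but 0.39 and 0.36 within box H/ACA. These are descriptions, since members share arrays, host genes and class.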
